A study of Mus musculus with 3 samples.

Results

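Cbx2 peaks that lie close together were examined in C3H10T1/2 cells, a mouse mesenchymal progenitor line derived from C3H embryos. The peaks described here are 600 to 5000 bp long and have another peak of any length within 10000 bp, edge to edge, on the same chromosome. They number 449 of the 2217 peaks in the deposited table, and 449 of the 1501 peaks in that length range. They are called linked peaks below, and the 1052 peaks of the same lengths without such a neighbour are called isolated. The choice used only positions and lengths, not the signal. The table itself, however, holds only regions dense in the WT library, with at least 9.5 reads per 200 bp.

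The signal comes from chromatin immunoprecipitation and sequencing (ChIP-seq) with an antibody against Cbx2. The WT library came from cells that stably express histone H3.3 of wild-type sequence with a FLAG-HA tag. The K36M library is titled as coming from cells with H3.3 in which methionine takes the place of lysine 36, although the genotype given in its label is wild-type. Both lines carry the same kind of tagged histone transgene, and whether either is 1 clone is not given in the sources used here. There was 1 ChIP library per group, with 29278813 reads for WT and 36243012 for K36M, so no difference could be set against replicate spread and no p-value is given. The WT column of the table was read as the Cbx2 ChIP and not as the WT input library, because the table is named for Cbx2. Every WT value rests on that reading.

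Cbx2 belongs to Polycomb repressive complex 1 (PRC1). Its chromodomain binds the histone mark H3K27me3, and it helps to compact chromatin at silent developmental genes. Polycomb proteins commonly cover such loci as several neighbouring patches, often centred on CpG islands, and nearby patches can contact one another in the nucleus. The K36M substitution, known from chondroblastoma, inhibits the enzymes that methylate lysine 36 of H3, a mark that hinders placement of H3K27me3 on the same tail. The comparison asked how Cbx2 is distributed when the mutant histone is present.

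The linked peaks were spread over all 20 chromosomes of the table and covered 995.4 kb, 17.7% of the length of all peaks. Their median length was 1800 bp (quartiles 1000 and 3200 bp), against 1600 bp (1000 and 2600 bp) for the isolated peaks. The gap to the nearest peak had a median of 3400 bp, with quartiles of 2000 and 6200 bp. No gap in the table was shorter than 1200 bp, and all peak edges fell on a 200 bp grid. For isolated peaks the median gap was 129200 bp. At the limit, the linked peaks with the widest gap, 10000 bp, included one on chromosome 16 (mm9, 14510200 to 14512999), one on chromosome 1 (184109200 to 184111599) and one on chromosome 15 (52283400 to 52285199). Their log2 ratios of K36M to WT were -1.53, -2.19 and -1.95. Just outside the limit were peaks on chromosome 16 from 14581200 (gap 10200 bp, log2 ratio -2.16), on chromosome 12 from 117262000 (10200 bp, -1.60) and on chromosome 13 from 23774000 (10400 bp, 0.60).

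Joined across gaps of up to 10000 bp, the linked peaks belonged to 245 groups that held 616 peaks in all. The other 167 peaks of these groups were 112 longer than 5000 bp and 55 of 400 bp. Groups of 2 peaks were the most frequent, at 175, followed by 41 groups of 3 and 15 of 4, and 1 group had 8. The median span of a group was 12.0 kb and the widest 138.8 kb. A single linked peak was present in 92 groups, 2 were present in 118, and 5 were present in 3. For 321 linked peaks the nearest peak was also mid-length, for 84 it was longer than 5000 bp and for 44 it was 400 bp long. Linked peaks that share a group are not independent of one another.

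The share of mid-length peaks that were linked differed between chromosomes. It was 51.0% on chromosome 13 (25 of 49), 44.2% on chromosome 11 (50 of 113) and 40.4% on chromosome 16 (36 of 89). Chromosome 15 held the most linked peaks, 51 of 146. On the X chromosome 6 of 50 were linked, and on chromosome 7, 5 of 34.

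In the WT library, linked peaks held a median of 4.92 reads per 1000000 library reads (RPM; quartiles 2.70 and 8.71, lowest 1.13, highest 46.1). In the K36M library the median was 1.77 RPM (quartiles 0.883 and 3.17, lowest 0.166, highest 68.4). Isolated peaks held medians of 4.08 RPM in WT and 1.38 RPM in K36M. Per length, and without scaling for the depth of the libraries, the median density of linked peaks was 14.1 reads per 200 bp in WT and 6.0 in K36M, against 13.5 and 5.88 in isolated peaks. The levels in both libraries thus ranged over more than 1 order of magnitude among linked peaks, and the densities of linked and isolated peaks were close at the median.

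Most linked peaks had less Cbx2 signal in the K36M library. All 2217 peaks reach at least 9.5 reads per 200 bp in WT, while K36M densities, not scaled for depth, go down to 1. How far this floor in WT alone tilts the values toward lower K36M signal was not tested. The intervals below do not cover it. The log2 ratio, taken as log2 of RPM plus 0.1 in K36M over the same in WT, had a median of -1.48, a 2.79-fold lower value, with quartiles of -1.82 and -1.06. The lowest was -2.82 and the highest 1.16. At least 2-fold lower signal was found at 343 of the 449 (76.4%), where 75.3% of all 2217 peaks passed the same limit. At least 4-fold lower signal was found at 75 (16.7%), against 15.9% of all peaks. At least 2-fold higher signal was found at 3 (0.668%), against 0.271% of all peaks. The 95% exact interval of the read ratio, which covers counting error only, lay below 1 at 397 linked peaks (88.4%, against 86.8% of all peaks) and above 1 at 31 (6.90%, against 2.75%), and included 1 at 21. These shares lower in K36M were near those over the whole table. In 71 linked peaks (15.8%, against 13.1% of all peaks) the K36M density, brought to the depth of the WT library, still reached the lowest WT density in the table.

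**Figure D1:**
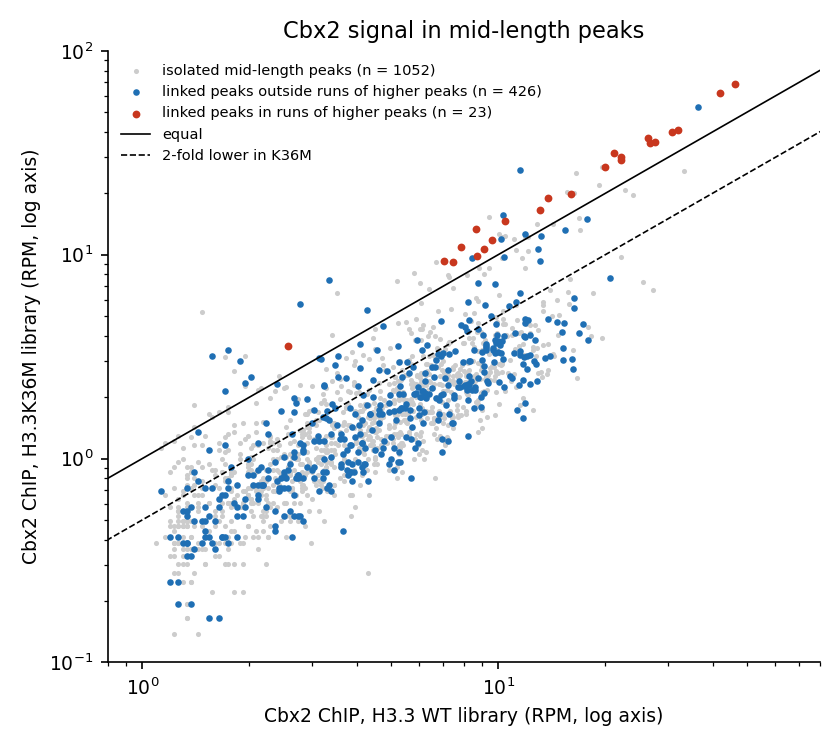
Cbx2 signal (RPM, log axes) of each mid-length peak in the WT library (horizontal) and the K36M library (vertical), for isolated peaks (grey), linked peaks (blue) and linked peaks in runs of 5 or more consecutive higher peaks (red). Most linked peaks sit below the dashed line of a 2-fold lower value, and the 23 red points lie above the line of equality, with WT signal from 2.56 to 46.1 RPM and a median of 15.98 RPM.

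The values rest on the RPM scale, in which each library is divided by its total reads. With the libraries scaled instead to the same median over all peaks, the median log2 ratio of all peaks moved by 1.43. The median of the linked peaks then became -0.032 and 217 of them (48.3%, against 48.7% of all peaks) were higher in K36M, in place of 38 (8.46%). Directions given below hold for the RPM scale, and peaks higher in K36M stay higher under every scaling tried, since each multiplies K36M by 2.42 or more.

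Linked and isolated peaks had close median ratios. The median was -1.48 in both, and the difference of the medians was 0.0019 on the log2 scale. The quartiles of isolated peaks, -1.82 and -1.06, also matched those of linked peaks to 2 decimals. Among isolated peaks, 824 of 1052 (78.3%) were at least 2-fold lower. On the RPM scale the sets differed in the upper tail. There 38 linked peaks (8.46%) and 39 isolated peaks (3.71%) were higher in K36M by any amount, where 4.6% of all peaks were. Setting the medians of the libraries equal gave 48.3% of linked and 48.0% of isolated peaks higher. For equal upper quartiles these were 46.8% and 47.0%, and for equal sums 31.0% and 32.8%. The higher share among linked peaks was thus seen on the RPM scale only. In the order of these scalings, 60, 57 and 50 of 449 linked peaks were at least 2-fold higher. Of 1052 isolated peaks, 105, 100 and 68 were. Summed over peaks, linked peaks held 85089 reads in WT and 57935 in K36M. Their K36M/WT ratio was 0.550 (exact interval at 95%: 0.544 to 0.556), and isolated peaks had a ratio of 0.414 (0.410 to 0.417). Linked peaks therefore held 17.8% of all peak reads in WT and 23.7% in K36M, while for isolated peaks these shares were 32.4% and 32.4%.

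Much of that difference lay in 23 linked peaks. They belong to runs of at least 5 consecutive peaks of any length that are all higher in K36M, a definition that uses the ratio itself and was made after the values had been seen. Leaving out runs removes higher peaks only, so a fall in the share of higher peaks was fixed by the definition. Without runs, 15 of 426 linked peaks (3.52%) and 34 of 1047 isolated peaks (3.25%) were higher in K36M. The summed ratios became 0.409 (0.404 to 0.414) and 0.401 (0.397 to 0.404), and the median log2 ratios -1.52 and -1.48.

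By length, the medians of linked and isolated peaks lay within 0.13 of each other on the log2 scale. At 600 to 1000 bp they were -1.39 (115 linked) and -1.30 (339 isolated). At 1200 to 2000 bp they were -1.40 (134) and -1.53 (323), at 2200 to 3000 bp -1.55 (84) and -1.52 (202), and at 3200 to 5000 bp -1.57 (116) and -1.57 (188). Peaks higher in K36M made up 12.9% of the linked and 4.79% of the isolated peaks in the longest band, and 7.46% and 1.55% in the 1200 to 2000 bp band. No direction of the difference in medians held over all 4 bands.

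**Figure D2:**
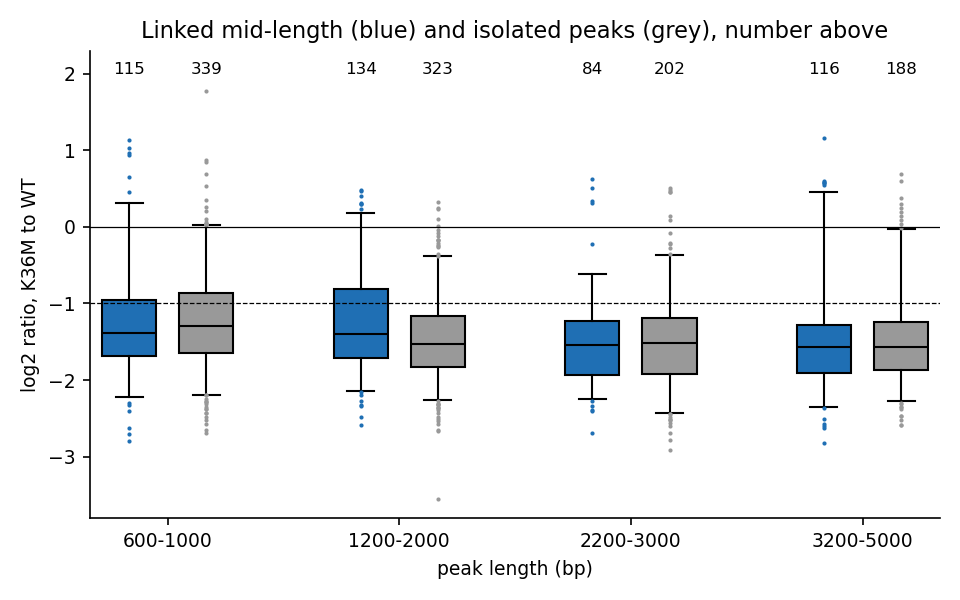
log2 ratio of K36M to WT by peak length for linked (blue) and isolated (grey) peaks. Boxes show medians and quartiles, whiskers the 5th and 95th percentiles, points the peaks beyond them, and numbers above give the peaks in each box. The medians run from -1.30 to -1.57, and the upper whiskers of the linked peaks reach higher than those of the isolated peaks in the first, the second and the last band.

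A linked peak and its nearest peak had similar ratios. The absolute difference of their log2 ratios had a median of 0.32, with quartiles of 0.16 and 0.55. Counting error alone, approximated from the reads of both peaks, gives the difference a median standard deviation of 0.33. These are unlike measures, since a normal spread has a median absolute value below its standard deviation. Their closeness therefore does not mean that neighbours differ by counting error only. For 353 of the 449 (78.6%) the ratios were within 1.5-fold of each other, and for 14 they differed by 2-fold or more. The 95% intervals of the ratios of a linked peak and its nearest peak did not overlap in 43 cases. The sign differed in 13. The Pearson r between the ratio of a linked peak and that of its nearest peak was 0.80 over 449 linked peaks, and 0.73 over the 426 outside runs. It describes these 2 libraries, in which the paired peaks share library, depth and often a role as each other's nearest peak.

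By the median difference, the likeness did not fade over the distances covered. Linked peaks with a gap of up to 2000 bp differed from their nearest peak by a median of 0.43 (128 peaks). The median difference was 0.30 for gaps over 2000 and up to 4000 bp (126), 0.29 up to 6000 bp (78), 0.34 up to 8000 bp (72) and 0.21 up to 10000 bp (45). Their median log2 ratios were -1.55, -1.37, -1.37, -1.60 and -1.54 in that order, with no steady trend. The Pearson r with the nearest peak, runs kept, was 0.80, 0.85, 0.72, 0.73 and 0.76 in the same order, lower at gaps over 4000 bp.

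Split by the length of the nearest peak, the medians of the classes differed, but their quartiles overlapped. In the order over 5000 bp, mid-length and 400 bp, the quartiles were -1.90 and -1.34, -1.81 and -0.94, and -1.74 and -0.75. Peaks in runs were kept, and in that order 4 of 84, 31 of 321 and 3 of 44 were higher in K36M. Linked peaks beside a peak longer than 5000 bp had a median log2 ratio of -1.59, and 77 of 84 (91.7%) were at least 2-fold lower. Those long neighbours had a median of -1.74, and in 47 of the 84 cases the linked peak had the higher ratio. Beside another mid-length peak the median was -1.44 and 236 of 321 (73.5%) were at least 2-fold lower, and beside a 400 bp peak it was -1.39 with 30 of 44 (68.2%). The same limit was passed by 75.3% of all 2217 peaks and by 91.3% of the peaks longer than 5000 bp. An effect of the neighbour's length was not tested. For the 400 bp neighbours, with few reads each, the median absolute difference was 0.44. The counting standard deviation, an unlike measure, was 0.56. Median WT densities of linked peaks in the 3 classes were 13.3, 14.2 and 14.8 reads per 200 bp in that order.

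**Figure D3:**
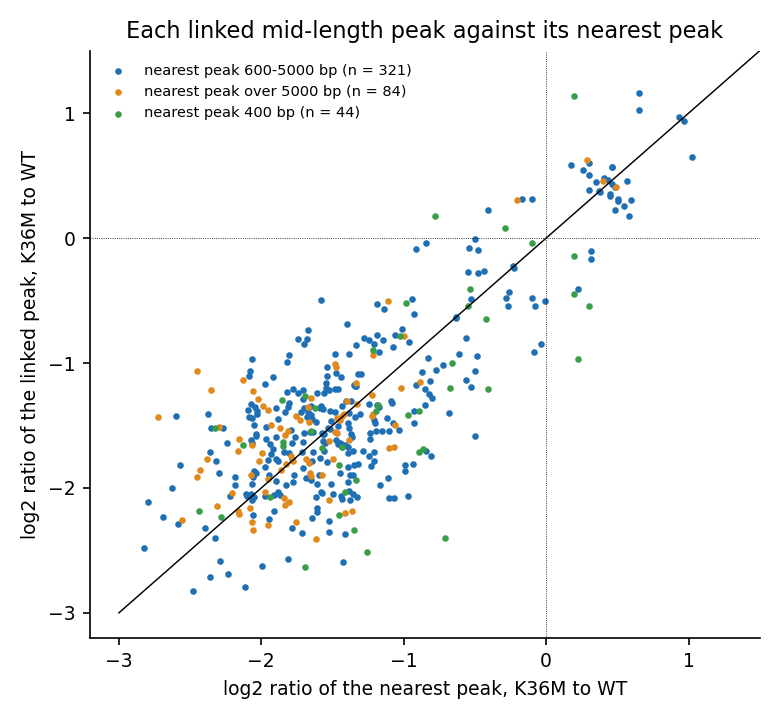
log2 ratio of K36M to WT of each linked peak (vertical) against that of its nearest peak (horizontal), coloured by the length of the nearest peak; the diagonal marks equal ratios. Points follow the diagonal from about -2.8 to above 0, and 13 of the 449 fall in the quadrants where the signs differ.

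In groups of 3 or more peaks, the 81 linked peaks with a neighbour within 10000 bp on both sides had a median log2 ratio of -1.52, and the 96 at an edge had -1.55. The 272 in groups of 2 had -1.44. In 186 pairs of adjacent linked peaks, the peak denser in WT had the lower ratio in 98 (52.7%) and was also the denser one in K36M in 123 (66.1%). The WT densities of a pair differed by a median of 1.14-fold and the K36M densities by 1.31-fold.

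Groups differed more from each other than the peaks within them. For the 357 linked peaks in the 153 groups with 2 or more, the standard deviation of log2 ratios was 0.78 over all and 0.32 within groups, where counting error gives about 0.26. Outside the runs these values were 0.67, 0.33 and 0.26 over 336 peaks. The range within a group had a median of 0.36 and a maximum of 1.29. In 101 of the 153 groups all linked peaks were at least 2-fold lower in K36M, and in 11 every linked peak was higher. In 3 groups linked peaks of both directions occurred, and in 9 groups when neighbours of all lengths were counted.

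The groups with the most linked peaks were led by one on chromosome 13, from 23622200 to 23677999, with 7 peaks of which 5 were linked peaks. From general knowledge of the mm9 genome, and not from the files, this interval and the next lie in the large cluster of replication-dependent histone genes, which are transcribed strongly in S phase. In genome order its 5 linked peaks held 649, 282, 770, 468 and 780 reads in WT and 1051, 430, 1354, 720 and 1283 reads in K36M. All were higher in K36M after allowing for depth, with log2 ratios from 0.30 to 0.50 and a summed ratio of 1.33 (1.27 to 1.39). The second group on that chromosome, from 23830400 to 23857199, had 4 linked peaks with ratios of 1.28, 1.37, 1.27 and 1.24. It ended in a 5200 bp peak with a log2 ratio of -0.20. The linked peaks of both groups thus lay within a narrow band above 0.

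The other large groups were lower in K36M throughout. On chromosome 16, from 37252800 to 37302199, 5 linked peaks had 44, 202, 205, 360 and 48 reads in WT and 18, 74, 75, 84 and 6 in K36M, a summed ratio of 0.242 (0.209 to 0.278). Its log2 ratios, from -1.43 to -2.71, spanned the widest range of all groups, although the lowest rests on 6 reads in K36M. On chromosome 11, from 104682400 to 104701799, 5 linked peaks went from 241, 187, 60, 78 and 96 reads to 70, 75, 27, 39 and 31, a summed ratio of 0.295 (0.254 to 0.343). On chromosome 10, from 42288400 to 42311399, the 4 linked peaks had log2 ratios from -1.77 to -2.04 and a summed ratio of 0.260 (0.228 to 0.296). Within the chromosome 10 group and within the chromosome 11 group, the intervals of all linked peaks overlapped.

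Other groups held neighbours whose ratios stood apart. These groups were picked for a wide range of ratios, so such neighbours follow from the choice, and the intervals do not allow for it. Among all 186 pairs of adjacent linked peaks, the intervals did not overlap in 16. In the group on chromosome 15 from 39021000 to 39053399, linked peaks starting at 39043800 and 39049200 are separated by 1800 bp. The first had 271 WT and 124 K36M reads and a ratio of 0.370 (0.296 to 0.459). The other had 376 and 87 reads and a ratio of 0.187 (0.146 to 0.237). On chromosome 5, peaks starting at 108151200 and 108156000, 1400 bp apart, had ratios of 0.158 (0.120 to 0.206) and 0.365 (0.295 to 0.450), with 347 and 294 reads in WT against 68 and 133 in K36M. In both pairs the WT densities (15.1 and 17.9, then 20.4 and 11.8 reads per 200 bp) and the K36M densities (6.89 and 4.14, then 4.0 and 5.32) were in opposite order. On chromosome 4, the 3 linked peaks from 88326400 to 88340999 had log2 ratios of -1.21, -1.52 and -2.27. In these groups the K36M signal was lower at each linked peak, but not in the same proportion.

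**Figure D4:**
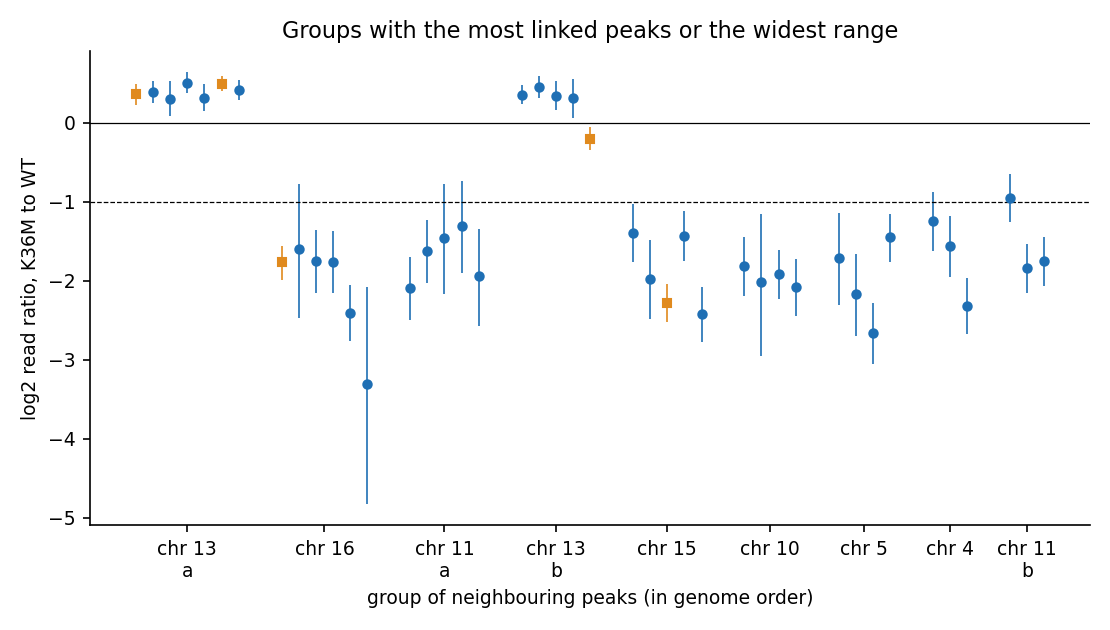
log2 read ratio of K36M to WT, without pseudocount, for each peak in the groups with the most linked peaks and in those with the widest range. That range was taken among linked peaks at or above the median mean signal (3.40 RPM). Circles are linked peaks, squares the longer peaks of the same group, and bars are 95% exact intervals for counting error. The circles of the chromosome 13 groups lie around 0.4, the last square of the second of these groups lies at about -0.2 and all other groups lie below 0, and the lowest point, on chromosome 16, has the widest interval.

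Hox genes, homeobox regulators of body patterning, are long-known Polycomb targets, and by general knowledge of mm9 several groups lie at their clusters. In and next to the HoxD region on chromosome 2, the 4 linked peaks between 74501000 and 74587399 had 213, 109, 185 and 110 reads in WT and 118, 90, 130 and 40 in K36M, a summed ratio of 0.495 (0.434 to 0.563). Their single ratios ran from 0.294 (0.199 to 0.425), at the last of them, to 0.667 (0.499 to 0.890). In and next to the HoxB region on chromosome 11, the 8 linked peaks between 96050400 and 96415399 had a summed ratio of 0.340 (0.317 to 0.364), with single ratios from 0.265 (0.221 to 0.316) to 0.517 (0.419 to 0.636). The 8-peak group on chromosome 15 from 102726200 to 102864999, in the HoxC region, was mostly made of longer peaks and held 1 linked peak, with a ratio of 0.335 (0.282 to 0.396). At the HoxA cluster on chromosome 6 and just beyond it, linked peaks starting at 52197200, 52260400 and 52270800 had ratios of 0.261 (0.152 to 0.433), 0.200 (0.161 to 0.247) and 0.154 (0.107 to 0.218). All linked peaks listed for these regions were lower in K36M.

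The 8 linked peaks with the most WT RPM, a total that grows with length, were all higher in K36M. Per length, the densest linked peak in WT was instead on chromosome 11 from 87275800. It had 75.8 reads per 200 bp and a log2 ratio of -0.28. The 8 with the most WT RPM held 26.3 to 46.1 RPM in WT and 35.4 to 68.4 RPM in K36M. The strongest was the 4800 bp peak on chromosome 13 from 21922600, with 46.1 and 68.4 RPM, a ratio of 1.48 (1.39 to 1.59). Next came the 4000 bp peak from 21900400 in the same group, with 42.1 and 62.4 RPM and a ratio of 1.48 (1.38 to 1.59). After these came a peak on chromosome 11 from 115881400 to 115885999, with 36.4 and 53.3 RPM and a ratio of 1.46 (1.36 to 1.58), outside the runs. The others were on chromosome 13, starting at 23646800, 23673200 and 23830400, and on chromosome 3, starting at 96040400 and 96048200, the latter in a second, smaller cluster of histone genes by general knowledge of mm9.

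The 38 linked peaks higher in K36M lay in 19 groups. Runs held 18 of them on chromosome 13 and 5 on chromosome 3, in 9 groups. The remaining 15 were on 7 chromosomes, 6 of them on chromosome 11, and the interval of the ratio lay above 1 for 9 of these. The largest ratios among linked peaks at or above the median mean signal (3.40 RPM) were at a chromosome 11 group with peaks starting at 81849000 (338 WT and 938 K36M reads, ratio 2.24, 1.98 to 2.55) and 81861200 (81 and 208 reads, ratio 2.07, 1.60 to 2.72). Another peak there, starting at 81859000, had 55 and 109 reads, a ratio of 1.60 (1.15 to 2.26). A chromosome 10 peak from 59411400 had 98 and 271 reads, a ratio of 2.23 (1.77 to 2.84). Next came the chromosome 13 peak from 21877600 (254 and 486 reads), the X chromosome peak from 123307800 (302 and 568 reads) and the chromosome 13 peak from 21844000 (617 and 1145 reads). Each of these peaks had a nearest peak that was also higher in K36M.

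High WT density went with higher signal in K36M more often than in the rest. At or above 27.6 reads per 200 bp, 2 times the median of the table, there were 30 linked peaks (6.68%) and 23 isolated peaks (2.19%). Of the 30, 19 were higher in K36M and 1 was at least 2-fold lower; of the 23, 7 were higher and 8 at least 2-fold lower. Outside runs, which leaves out higher peaks only, 3 of 14 and 3 of 19 were higher. On chromosome 11, between 87236000 and 87285999, 6 dense linked peaks in 3 groups, with a median WT density of 54.9 reads per 200 bp, were slightly lower in K36M. Their summed ratio was 0.824 (0.778 to 0.873), and single ratios ran from 0.714 to 0.934. This limit and these peaks were chosen after the values had been seen, and a dependence of their signal on Cbx2 was not tested, as the table gives no input values.

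The lowest ratios among the stronger linked peaks were found on 6 chromosomes. The lowest was at the chromosome 5 peak from 140023200 to 140027599, where 344 WT and 57 K36M reads gave a ratio of 0.134 (0.0993 to 0.178). Its neighbour from 140014800 was also among the lowest 8, with a ratio of 0.168 (0.118 to 0.233) from 212 and 44 reads. The others started at 14933000 on chromosome 9 (330 and 63 reads), 108151200 on chromosome 5, 52270800 on chromosome 6, 9754000 on chromosome 17 (240 and 47 reads), 88459800 on chromosome 4 (474 and 100 reads) and 38142600 on chromosome 8 (204 and 45 reads). Their K36M densities were 2.59 to 5.50 reads per 200 bp, against WT densities of 13.3 to 26.5. No background was subtracted, so these ratios are not measures of the binding left.

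By chromosome, the median log2 ratio of linked peaks was lowest on chromosome 6 (-2.03 over 14 peaks), followed by chromosome 14 (-1.93 over 11), and highest on chromosome 13 (0.35 over 25). All 18 higher linked peaks of chromosome 13 were in runs, so the 7 outside them were lower by definition. Their median was -1.44. Isolated peaks had medians of -1.27 on chromosome 6, -1.45 on chromosome 14 and -1.24 on chromosome 13. On chromosome 11, which had 6 higher linked peaks outside runs, the median was -1.27 over 50.

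**Figure D5:**
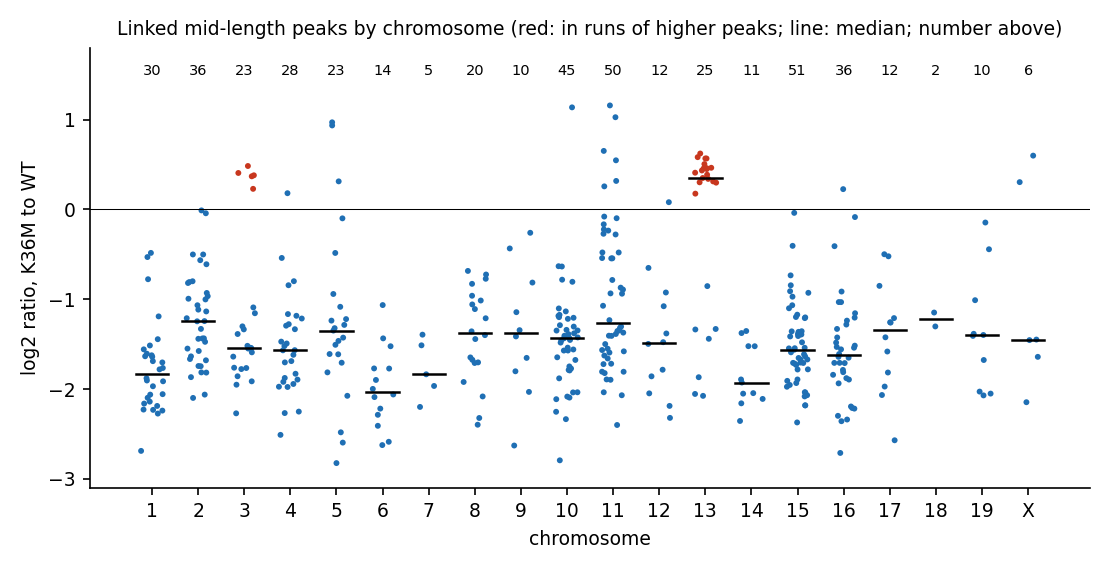
log2 ratio of K36M to WT of every linked peak by chromosome, with medians as lines and the number of peaks above. Red points, 18 on chromosome 13 and 5 on chromosome 3, are peaks in runs of higher peaks, and chromosome 13 is the only one with a median above 0 on the RPM scale.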

How the data were processed

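Reads were aligned by the authors with Bowtie 1.0.0 to mm9, per the submitters' processing notes. How peaks were called, how duplicates were treated and whether the input was used is not given in the sources used here. The deposited values are headed RPKM but are reads per 1000000 library reads (RPM): 100% were whole multiples of 1 step per column, within 1e-06 of a read, whatever the peak length, and reads were recovered from them on the assumption that 1 step is 1 read. No annotation or sequence of mm9 was used here, so positions are the table's. Neighbours were found by a script in Python 3.11.15 with pandas 2.3.3, and intervals with scipy 1.17.1 (Clopper-Pearson, 95%). Alternatives covered pseudocounts, scaling, filters, gap and length limits, leaving out runs, and 1 value per group. Calculations were tested on simulated reads. Named peaks were the 8 linked peaks strongest in WT, the 8 lowest and 8 highest ratios among those at or above the median mean RPM, the 3 on each side of the gap limit, and the 6 groups with most linked peaks (ties by WT RPM) and 4 with the widest range. The peaks and rules were chosen with earlier results of these data known. Peaks of the Hox regions and of the dense chromosome 11 region were named after their values were seen. PCR reads are not independent molecules, so intervals cover counting error only.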

Additional observations from a re-analysis of the deposited data

How the results depend on the processing

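No paired analysis was possible because there is a single ChIP library for each histone, and for the same reason none was left out. Scaling decided the counts. With the same median, upper quartile or sum in both libraries, the median log2 ratio of linked peaks was -0.032, -0.051 or -0.27, with 14, 14 or 37 at least 2-fold lower, 60, 57 or 50 at least 2-fold higher and 217, 210 or 139 higher by any amount, and the summed read ratio became 1.59, 1.57 or 1.33 in place of 0.550. Over all 2217 peaks, 77, 85 or 186 were at least 2-fold lower and 236, 223 or 156 at least 2-fold higher. By any amount, 1080, 1058 or 748 of them were higher. These scalings multiply all K36M reads, those outside peaks included. In the order same median, same upper quartile and same sum, the log2 ratios that turned positive were 0.28, 0.26 and 0.029 for the chromosome 4 peak at 88326400 and 0.57, 0.55 and 0.32 for the chromosome 11 peak at 96197600. Under the same median and upper quartile these were 0.077 and 0.057 for the chromosome 5 peak at 108156000, 0.067 and 0.047 at 104692200 and 0.21 and 0.19 at 104697800 on chromosome 11, and 0.14 and 0.12 at 39021000 and 0.093 and 0.073 at 39043800 on chromosome 15. The pseudocount moved the median to -1.55 at 0.01 and -1.03 at 1, where 1 peak was at least 2-fold higher. At limits of 1.5-fold and 3-fold, 8 and 0 of the 449 linked peaks were higher, and 379 and 186 were lower. Shares over all 2217 peaks were not taken at these limits or for the smaller sets below. These counts therefore show only how the choice moves them. Some alternatives left smaller sets, to be read against 343 of 449 at least 2-fold lower. At or above the median WT density, 173 of 252 were that much lower (summed ratio 0.630). With a gap of 5 kb, 217 of 291 were (0.563). With 1 value per group, 194 of 245 were, and 18 were higher by any amount. The summed ratio was 0.521 with a gap of 20 kb, 0.513 at 800 to 4000 bp and 0.409 without the runs, where 15 peaks were higher. The difference in medians from isolated peaks stayed between -0.055 and 0.054 in every alternative run, and the median difference from the nearest peak between 0.29 and 0.35. Depth limits the weakest linked peaks, with 33 reads in WT and 6 in K36M.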

Other observations

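Several groups lay side by side within single megabases. The stretch of chromosome 15 from 39021000 to 39785199 held the most, 14 linked peaks in 6 groups, with a summed K36M/WT ratio of 0.333 (95% exact interval 0.310 to 0.358) and log2 ratios from -2.37 to -0.91. On chromosome 16, 11 linked peaks in 4 groups from 37129200 to 37367399 had a ratio of 0.290 (0.266 to 0.316), and on chromosome 10, 10 linked peaks in 5 groups from 23471800 to 23847599 had 0.362 (0.335 to 0.391). On chromosome 1, a group of 4 linked peaks from 72272600 to 72302599 had a higher ratio, 0.596 (0.531 to 0.668), at a median WT density of 25.5 reads per 200 bp. On chromosome 5, a pair of weak peaks starting at 91188200 and 91191000 had 51 and 46 reads in WT and 124 and 115 in K36M, ratios of 1.96 (1.41 to 2.78) and 2.02 (1.42 to 2.91). These regions were chosen with their values in view.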
